A study of Mus musculus with 4 samples.

Results

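The transcription factor p53 and 9 genes that it is known to switch on directly were followed in sorted mouse erythroid cells in which the gene Adar is the target of a conditional deletion. Adar encodes ADAR1, which edits adenosine to inosine in double-stranded RNA. The 10 genes were chosen by name, as Trp53 itself and well-known targets (Cdkn1a, Mdm2, Bbc3, Gdf15, Ccng1, Trp53inp1, Phlda3, Zmat3 and Aen). These members and the lists below were chosen with earlier results of these data known. Their counts beside those of all genes are thus a description only. A row was found for all 10 in the deposited table of 10716 genes. The cells came from C57BL/6 fetal livers at embryonic day 14.5 and were sorted by flow cytometry for YFP from the R26eYFP reporter. There were 2 libraries labelled knockout (replicates 1 and 2), whose genotype field reads Epor-Adar / +, with Cre recombinase driven by the erythropoietin receptor gene. The 2 controls (replicates 3 and 8) carry the genotype label wild type, and their labels name neither a Cre nor a reporter allele. Whether 1 or both Adar alleles were targeted, and whether each library came from a separate embryo, is not given in the labels. The p-values thus reflect the spread among these 4 libraries alone. Between the 2 controls that spread may be technical, while the 2 knockout-labelled libraries differed in Y-linked counts (below).

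p53 is kept low in unstressed cells because the ubiquitin ligase MDM2, itself a p53 target, marks it for degradation. Stress that frees p53 from MDM2 raises the protein more than its mRNA, and p53 then activates genes that halt the cell cycle, set off cell death or act back on p53. In erythroid precursors of the fetal liver, p53 activation is known from ribosomal and replication stress, where p21, the product of Cdkn1a, and cell death limit red cell output.

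Total counts ran from 28356401 to 44016809 per library. Adar had 67.1 and 102 CPM (counts per 1000000 counts of the library total after TMM scaling) in the libraries labelled knockout, against 50.9 and 46.9 CPM in the controls. Reads from exons outside a deleted part add to this level, so it does not check the deletion, and the libraries are called by their labels throughout. In 3 of the 4 libraries the counts of 4 Y-linked genes did not match the labelled sex, and all 10 members are autosomal. Ddx3y had 5627 counts in knockout-labelled replicate 1 and 3 in replicate 2, against 2371 and 4081 in the controls. For Eif2s3y these were 3244 and 0, against 1990 and 3768. The 2 knockout-labelled libraries thus did not come from the same embryo, and their spread includes a difference in sex. Erythroid markers were found for 14 of 16 genes and summed to 75353 and 76856 CPM in the libraries labelled knockout, against 107236 and 71772 CPM in the controls. Markers of neutrophils (7 of 10 found) summed to 305 CPM in knockout-labelled replicate 1 and to between 37.3 and 45.3 CPM in the other 3 libraries. Stem and progenitor markers (3 of 9 found) summed to 127 and 64.2 CPM in the libraries labelled knockout and 58.8 and 54.9 CPM in the controls. Those of megakaryocytes (7 of 8 found) summed to 157 and 106 CPM in the libraries labelled knockout, against 61.8 and 89.6 CPM in the controls. The sums for macrophages (10 of 12 found) were 53.6 and 29.5 CPM in the libraries labelled knockout and 60.0 and 34.6 CPM in the controls, and for hepatoblasts (7 of 14 found) 51.7 and 59.6 CPM in the libraries labelled knockout, against 111 and 42.6 CPM in the controls. Lymphoid and endothelial markers (4 of 9 found) summed to 30.4 and 19.5 CPM in the libraries labelled knockout, against 10.1 and 8.26 CPM in the controls. The part of these other cells in the values below was not tested. In such bulk samples, fewer cells of a type and less RNA per cell cannot be told apart.

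p53 binds DNA as a tetramer at a pair of 10-base motifs. The p53 consensus full site, both motifs with no spacer and at most 1 mismatch outside the fixed C and G of each, was searched on NCBIM37 within 5 kb on either side of each gene's annotated start. The consensus reads the same on both strands. A match was found for 4 of the 10 members and for 190 of 9537 genes of the table with a position (1.99%). The sites below are shown because they tie members to the p53 recognition sequence, with the full site in capitals and 40 bases of flank on each side. Each is written 5′ to 3′ in the direction of its gene.
Cdkn1a (site at chr17:29227873-29227892, plus strand): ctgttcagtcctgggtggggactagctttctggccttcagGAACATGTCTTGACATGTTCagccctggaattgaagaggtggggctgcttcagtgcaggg
Zmat3 (site at chr3:32263253-32263272, minus strand): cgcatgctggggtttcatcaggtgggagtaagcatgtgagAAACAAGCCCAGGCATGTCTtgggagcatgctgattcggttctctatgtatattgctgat
Ccng1 (site at chr11:40568964-40568983, minus strand): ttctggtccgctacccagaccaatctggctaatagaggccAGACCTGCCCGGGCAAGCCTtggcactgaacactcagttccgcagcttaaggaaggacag
Gdf15 (site at chr8:73155865-73155884, minus strand): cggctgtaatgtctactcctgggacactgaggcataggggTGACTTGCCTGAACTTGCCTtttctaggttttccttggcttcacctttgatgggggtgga

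The Cdkn1a site begins 51 bases before the annotated gene start, and the Ccng1 site 170 bases before it. The Gdf15 site begins 471 bases and the Zmat3 site 1328 bases after the start of the gene. The Zmat3 site matched with no mismatch, as did a site near 26 of the 9537 genes (0.273%). Ccng1 and Zmat3 each had a further match in the same window. In the RefSeq promoter windows of GRCm38.p6 (300 bases each), the full site was found in 2 of 13 windows belonging to 8 members. These were 1 window of Cdkn1a (chr17:29090729-29091028 on that build) and the window of Ccng1. Another Cdkn1a window, downstream of the first (chr17:29093519-29093818), held no full site, so the site lies well upstream of that second promoter. Over all promoters, 22 of 32851 windows (0.0670%) held it. For Trp53, Mdm2, Bbc3, Trp53inp1, Phlda3 and Aen, no such match was in the 5 kb windows. Sites with a spacer or with more mismatches were not searched, so this does not show that these genes lack a p53 site. A match is a description of the sequence and not evidence of binding in these cells.

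None of the 10 members passed edgeR's quasi-likelihood test at an adjusted p below 0.05 over all genes, a level that 0.103% of the 10716 genes passed as higher and 0% as lower. All 10 had a positive log2 fold change, as did 5353 of the 10716 genes, and both knockout-labelled libraries lay above the control mean of log2 CPM in all 10, as in 37.4% of all genes. In 9 members each knockout-labelled library was above each control, which held for 27.4% of all genes. Gdf15 was below 1 CPM in both controls and has a row only because of the knockout-labelled libraries, so it had to differ. Without it, 8 of 9 members did not overlap, against 26.3% of the 10489 genes that reached 1 CPM in a library of each group. Here and below, this floor was set on CPM before TMM scaling. Values of p below 0.05 before adjustment were reached by 7 members, Gdf15 included, and by 9.82% of all genes as higher. The median log2 fold change was 1.52 over the 10 members, 1.18 without Gdf15 and -0.000773 over all genes.

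**Figure D1:**
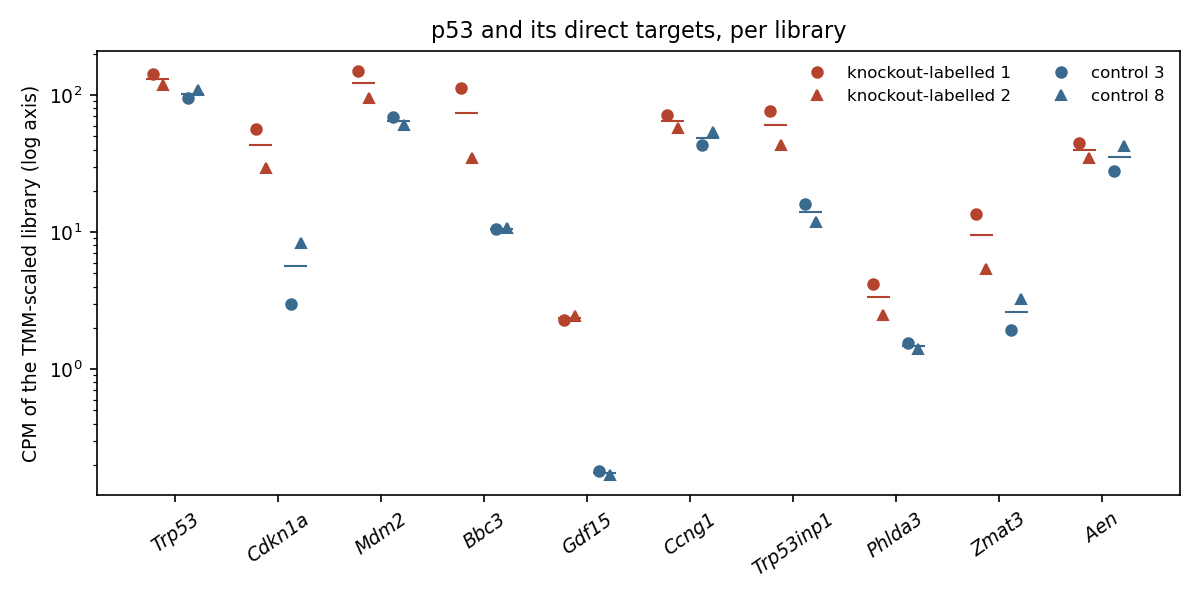
CPM of the TMM-scaled library on a log axis for each member, with knockout-labelled libraries in red to the left of controls in blue and a line at each group's mean. In 9 of the 10 members both red points lie above both blue points, and in Aen they overlap.

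Trp53 (ENSMUSG00000059552, chromosome 11, 69393861 to 69405375 on NCBIM37), which encodes p53, had 143 and 118 CPM in the libraries labelled knockout and 94.7 and 108 CPM in the controls. The groups did not overlap, yet the distance between them was small. The means were 130 ± 18 CPM in the knockout-labelled and 102 ± 9.75 CPM in the control libraries (SD, n = 2 each), a log2 fold change of 0.36 (SE 0.20, edgeR adjusted p = 0.45). It was 0.21 without knockout-labelled replicate 1 (adjusted p = 0.888). The annotation holds a pseudogene, Trp53-ps, on chromosome 17, and how reads shared with it were counted is not given in the sources used here.

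Mdm2 (ENSMUSG00000020184, chromosome 10, 117125944 to 117147814) had 150 and 94.9 CPM in the libraries labelled knockout, against 69.3 and 60.6 CPM in the controls. Its 2 control values lay close together and both knockout-labelled values above them, replicate 1 farther away. Its log2 fold change stood at 0.92 (SE 0.27, edgeR adjusted p = 0.354). Leaving out knockout-labelled replicate 2 raised it to 1.20, which passed (adjusted p = 0.00157), and leaving out replicate 1 gave 0.55 (adjusted p = 0.291).

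Among the members that hold the cell cycle, Cdkn1a (ENSMUSG00000023067, chromosome 17, 29227924 to 29237667) encodes p21, an inhibitor of cyclin-dependent kinases. It had 56.3 and 29.6 CPM in the libraries labelled knockout, against 2.97 and 8.34 CPM in the controls. The means were 43.0 ± 18.9 CPM in the knockout-labelled and 5.66 ± 3.80 CPM in the control libraries (SD, n = 2 each), a ratio of 7.59, although the controls themselves differed by a factor of 2.81. The log2 fold change reached 2.91 (SE 0.57, edgeR adjusted p = 0.208). It was 2.36 without control replicate 3 and 3.84 without control replicate 8, and passed in both cases (adjusted p = 0.0397 and 0.0166). Leaving out knockout-labelled replicate 1 gave 2.36 (adjusted p = 0.555) and leaving out replicate 2 gave 3.27 (adjusted p = 0.0615).

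Ccng1 (ENSMUSG00000020326, chromosome 11, 40562054 to 40568813), the gene of cyclin G1, had 72.1 and 57.4 CPM in the libraries labelled knockout and 43.1 and 53.8 CPM in the controls. Knockout-labelled replicate 2 was only slightly above control replicate 8. The log2 fold change of Ccng1 was 0.42 (SE 0.22, edgeR adjusted p = 0.44), beside 2.91 for Cdkn1a. Cdkn1a also had a full site just before its annotated gene start, but none in its other promoter window, which lies downstream. Leaving out knockout-labelled replicate 2 gave 0.56, which passed (adjusted p = 0.0456), while leaving out replicate 1 gave 0.24 (adjusted p = 0.867) and leaving out control replicate 3 gave 0.27 (adjusted p = 1.0).

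The members tied to cell death were Bbc3, Trp53inp1, Aen and Phlda3. Bbc3 (ENSMUSG00000002083, chromosome 7, 16894965 to 16903554) encodes PUMA, a BH3-only protein that triggers mitochondrial cell death. It had 114 and 34.7 CPM in the libraries labelled knockout and 10.5 and 10.8 CPM in the controls. The control values almost coincided, and the knockout-labelled libraries differed from each other by a factor of 3.28, the widest such gap among the 10 members. The means were 74.2 ± 55.9 CPM in the knockout-labelled and 10.6 ± 0.194 CPM in the control libraries (SD, n = 2 each). The log2 fold change of Bbc3 was 2.80 (SE 0.56, edgeR adjusted p = 0.219). It was 1.71 without knockout-labelled replicate 1 (adjusted p = 0.00149) and 3.41 without replicate 2 (adjusted p = 4.38e-06), and it did not pass without either control.

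Trp53inp1 (ENSMUSG00000028211, chromosome 4, 11083578 to 11101526), a nuclear protein that promotes p53-dependent death and autophagy, had 76.9 and 43.3 CPM in the libraries labelled knockout, against 16.2 and 11.8 CPM in the controls. Both libraries of a group stood well apart from both of the other, with means of 60.1 ± 23.8 CPM in the knockout-labelled and 14.0 ± 3.10 CPM in the control libraries (SD, n = 2 each). The log2 fold change was estimated at 2.11 (SE 0.35, edgeR adjusted p = 0.143), and it passed without knockout-labelled replicate 1 (1.64, adjusted p = 0.00664), without replicate 2 (2.45, adjusted p = 0.00026) and without control replicate 3 (2.35, adjusted p = 0.0199).

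Phlda3 (ENSMUSG00000041801, chromosome 1, 137662696 to 137665713), a PH-domain protein that restrains the kinase AKT, had 4.21 and 2.49 CPM in the libraries labelled knockout and 1.56 and 1.39 CPM in the controls. The log2 fold change came to 1.18 (SE 0.41, edgeR adjusted p = 0.399), from raw counts of 129 and 96 in the knockout-labelled and 43 and 66 in the control libraries. It passed without knockout-labelled replicate 2 (1.5, adjusted p = 0.0133) and was 0.76 without replicate 1 (adjusted p = 0.711). Aen (ENSMUSG00000030609, chromosome 7, 86040740 to 86056095), a nuclease that takes part in DNA breakdown during apoptosis, had 44.6 and 34.8 CPM in the libraries labelled knockout, against 27.9 and 42.5 CPM in the controls. It was the member whose groups overlapped, with a log2 fold change of 0.17 (SE 0.28, edgeR adjusted p = 0.754). That value turned negative when knockout-labelled replicate 1 (-0.022) or control replicate 3 (-0.099) was left out.

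Gdf15 (ENSMUSG00000038508, chromosome 8, 73153292 to 73156355) encodes a secreted cytokine of the TGF-beta family that erythroblasts release and that is also a target of the stress factors ATF4 and CHOP. It had 2.28 and 2.46 CPM in the libraries labelled knockout, against 0.181 and 0.169 CPM in the controls. These were raw counts of 70 and 95 in the knockout-labelled and 5 and 8 in the control libraries, so counting error weighs most on the controls. Within each group the values nearly coincided, and the log2 fold change stood at 3.74 (SE 0.44, edgeR adjusted p = 0.0747), the highest of the 10 members. It passed without knockout-labelled replicate 1 (3.80, adjusted p = 0.0043) and without replicate 2 (3.68, adjusted p = 0.00127).

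Zmat3 (ENSMUSG00000027663, chromosome 3, 32233718 to 32264600), an RNA-binding zinc finger protein, had 13.6 and 5.34 CPM in the libraries labelled knockout and 1.92 and 3.27 CPM in the controls. Knockout-labelled replicate 1 stood far above the rest. Its log2 fold change stood at 1.85 (SE 0.54, edgeR adjusted p = 0.354). It ranged from 1.02 without knockout-labelled replicate 1 (adjusted p = 0.476) to 2.36 without replicate 2 (adjusted p = 0.00189).

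**Figure D2:**
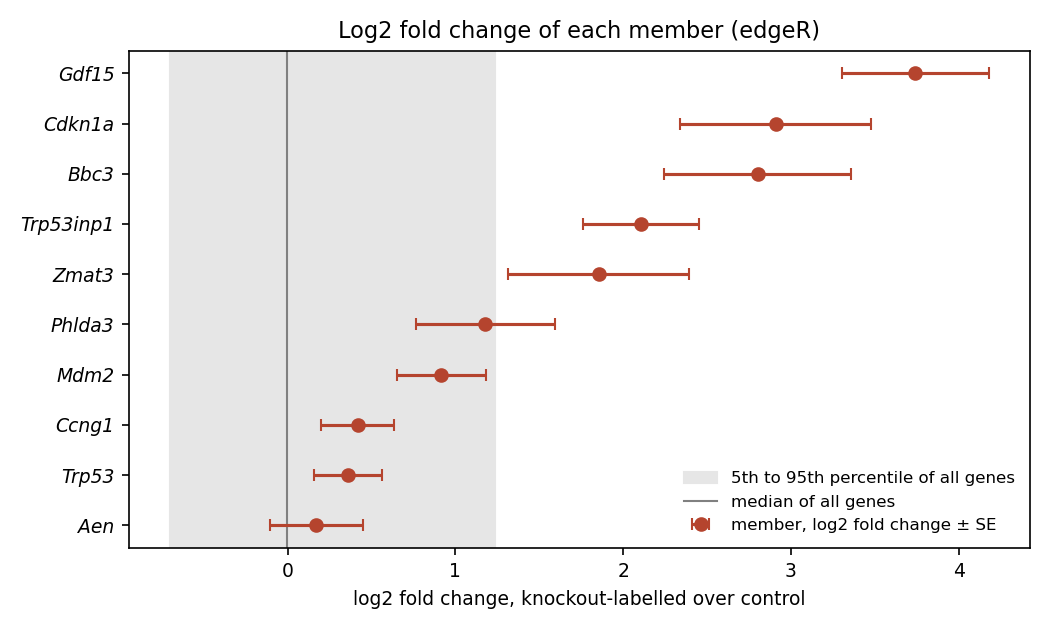
Log2 fold change of each member, knockout-labelled over control, with its SE from edgeR, beside the band from the 5th to the 95th percentile of all 10716 genes (-0.70 to 1.24). Gdf15, Cdkn1a, Bbc3, Trp53inp1 and Zmat3 lie above the band, and the other 5 members lie inside it.

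In the authors' deposited table, whose log2 fold changes are control minus knockout and were turned in sign here, the 10 members ranged from 0.17 (Aen) to 3.66 (Gdf15). Adjusted p-values in the authors' deposited table ranged from 0.106 (Gdf15) to 0.759 (Aen), so no member passed 0.05 there either. The authors' deposited table gives 2.55 for Bbc3 and 1.67 for Zmat3, the members farthest from the edgeR values of 2.80 and 1.85. It holds 8 genes with an adjusted p below 0.05, all higher in the knockout-labelled libraries.

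The 2 knockout-labelled libraries did not depart equally from the controls. Replicate 1 was higher than replicate 2 in 9 members, with ratios of up to 3.28, and Gdf15 was the exception with a ratio of 0.927. Of all genes, 4004 were, like the 10 members, above the control mean of log2 CPM in both knockout-labelled libraries. Replicate 1 was the higher in 3392 of these 4004 (31.7% of all genes). A higher replicate 1 was thus common among such genes and not particular to the members. On the scale of log2 CPM minus the control mean, Cdkn1a stood at 3.48 and 2.56 in knockout-labelled replicates 1 and 2, Bbc3 at 3.41 and 1.70, and Zmat3 at 2.42 and 1.07. Trp53inp1 stood at 2.47 and 1.64 and Mdm2 at 1.21 and 0.55. Over the 10 members the median was 1.95 in replicate 1 and 0.90 in replicate 2. Knockout-labelled replicate 1 is also the library with 305 CPM of neutrophil markers. Its S100a9, a granulocyte calcium-binding protein gene chosen after its values were seen, was at 113 CPM, against 12.6 CPM in knockout-labelled replicate 2 and 11.7 and 15.1 CPM in the controls. The part of neutrophils and of other cells in the values of the members was not tested in either library. In knockout-labelled replicate 2, 9 of the 10 members were above both controls, with Aen the exception, as were 34.7% of all genes. Without Gdf15 it was 8 of 9, against 33.8% of the genes that reached 1 CPM in a library of each group.

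**Figure D3:**
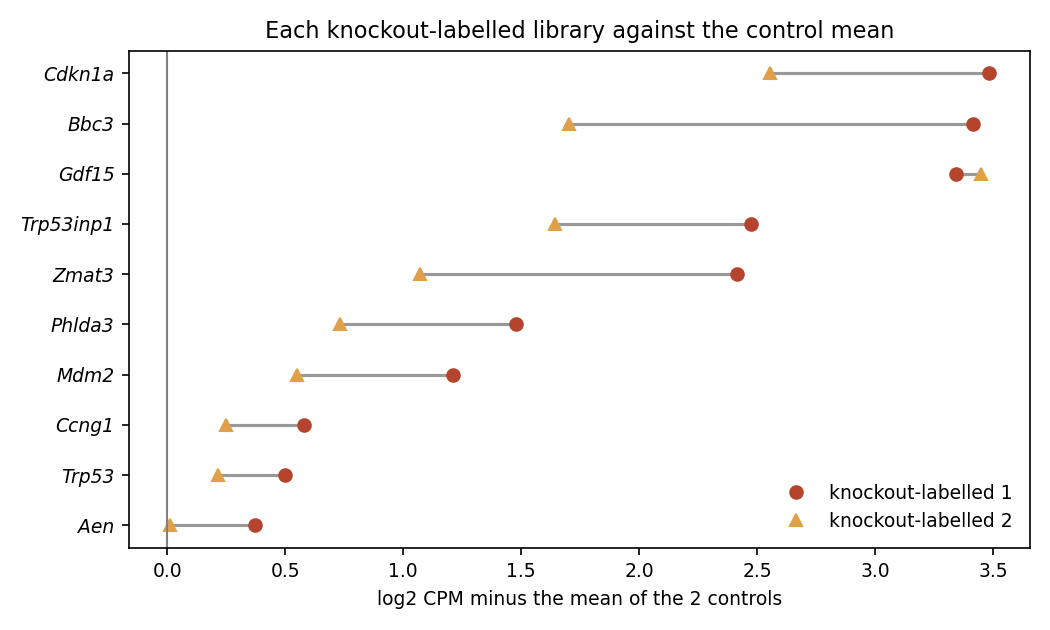
Log2 CPM of each knockout-labelled library minus the mean of the 2 controls, with replicate 1 as circles and replicate 2 as triangles. Replicate 1 lies to the right of replicate 2 in 9 members, and the triangle of Gdf15 lies to the right of its circle (3.45 against 3.34).

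Leaving out 1 library at a time changed which members passed. With knockout-labelled replicate 2 left out, 7 of the 10 passed as higher, where 17.3% of all genes did, and with replicate 1 left out 3 passed, where 1.29% did. Without control replicate 3, 2 passed (0.373% of all genes), and without control replicate 8, 1 passed (0.233%). Trp53 and Aen passed in none of these fits. Cdkn1a passed in those without a control, which used both knockout-labelled libraries, while Bbc3 and Gdf15 passed in those without a knockout-labelled library. With all 4 libraries, DESeq2 called 5 members as higher (3.29% of all genes), the likelihood ratio test of edgeR 4 (3.09%) and the fit without library scaling 2 (0.793%). In each fit without a library, the lone library of a group is taken to vary like the other group's pair.

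**Figure D4:**
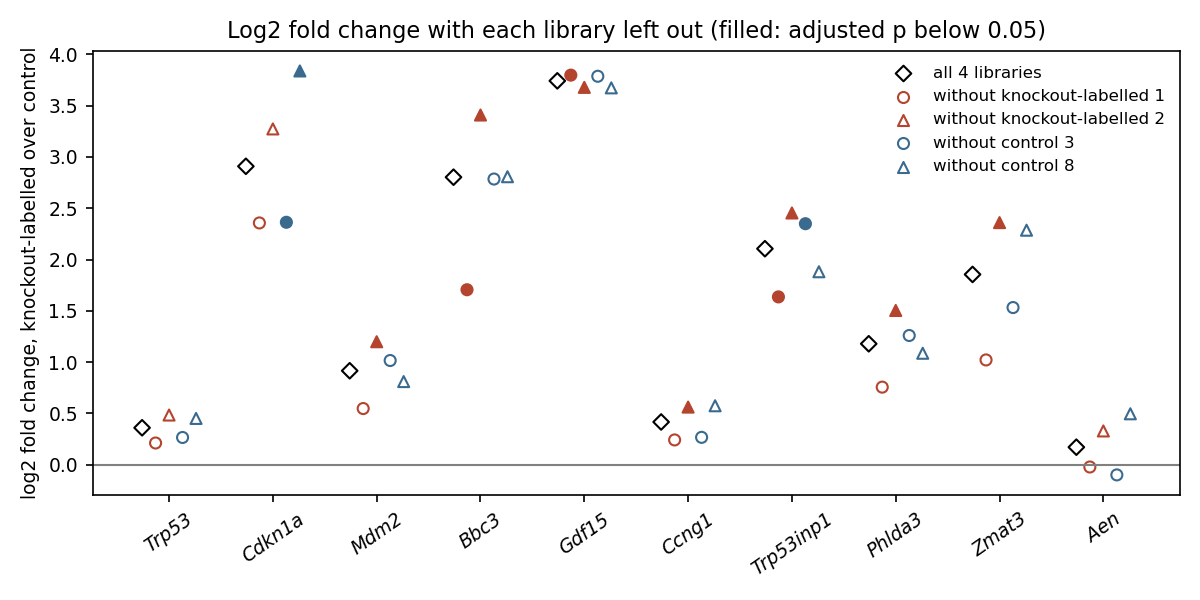
Log2 fold change of each member, knockout-labelled over control, with all 4 libraries (diamonds) and with each library left out in turn; filled symbols passed an adjusted p below 0.05. Gdf15 stays between 3.67 and 3.80 and Bbc3 spans 1.71 to 3.41.

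Levels were set against each other per kb of exon, as CPM divided by the merged exon length of the NCBIM37 annotation. In the knockout-labelled libraries the order was Bbc3 (36.9 ± 27.8 CPM per kb), Trp53 (32.2 ± 4.45), Mdm2 (24.2 ± 7.71), Cdkn1a (19.3 ± 8.49) and Ccng1 (18.4 ± 2.97), with SD over 2 libraries. None of these neighbours differed beyond their spread, which does not take account of values paired within a library. In each knockout-labelled library Trp53 (35.4 and 29.1) was above Mdm2 (29.6 and 18.7), and Mdm2 above Cdkn1a (25.3 and 13.3). Bbc3 and Trp53 changed order between the libraries, as did Cdkn1a and Ccng1. Below them came Trp53inp1 (9.28 ± 3.67 CPM per kb), Aen (6.98 ± 1.23), Phlda3 (2.15 ± 0.78), Gdf15 (1.28 ± 0.0682) and Zmat3 (1.17 ± 0.725). Of these, Trp53inp1 and Aen lay within their spread, although Trp53inp1 (11.9 and 6.68) was above Aen (7.85 and 6.11) in each knockout-labelled library. Gdf15 and Zmat3 also lay within their spread and changed order between the libraries. In the controls Trp53 led with 25.1 ± 2.41 CPM per kb, followed by Ccng1 (13.8 ± 2.15) and Mdm2 (12.8 ± 1.21), a pair within their spread. Aen (6.19 ± 1.81 CPM per kb) and Bbc3 (5.29 ± 0.0968) were likewise within their spread, as were Cdkn1a (2.55 ± 1.71) and Trp53inp1 (2.16 ± 0.479). Phlda3 (0.947 ± 0.0747 CPM per kb), Zmat3 (0.321 ± 0.118) and Gdf15 (0.0946 ± 0.00469) were the lowest. The first place of Bbc3 in the knockout-labelled libraries rests on replicate 1 (56.6 CPM per kb), since in replicate 2 it had 17.3 CPM per kb, below Trp53 (29.1) and Mdm2 (18.7).

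Genes whose profile over the 4 libraries lay nearest to that of Cdkn1a were found by Euclidean distance in log2 CPM centred on each gene's mean. The nearest were Tmem71 (distance 0.38), Pfkp (0.44), the NF-kB subunit gene Relb (0.47), Eda2r (0.53) and Gpr128 (0.55). Pfkp, the platelet isoform of phosphofructokinase, had 120 and 43.0 CPM in the libraries labelled knockout, against 4.50 and 14.3 CPM in the controls. Eda2r, a death receptor gene that is itself a known p53 target, had 2.84 and 1.35 CPM in the libraries labelled knockout, against 0.145 and 0.57 CPM in the controls. Tmem71, Eda2r and Gpr128 were below 1 CPM in both controls and have a row only because of the libraries labelled knockout. Their likeness to Cdkn1a, which was higher in those libraries, was thus partly fixed by the filter. Among the other members Bbc3 was nearest (distance 1.25), followed by Gdf15 (1.37) and Zmat3 (1.40). The 4 libraries are too few for this likeness to be more than a description.

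Genes that act on p53 were spread around no change. Of 26 listed regulators 25 were measured, and 0 passed in either direction in the edgeR fit. The median log2 fold change of the list was -0.04, with 8 non-overlapping as higher and 6 as lower, close to the 27.4% and 26.7% of all genes. Trp53bp1, whose product binds p53 and steers the repair of DNA breaks, had 52.9 and 79.1 CPM in the libraries labelled knockout, against 172 and 114 CPM in the controls (log2 fold change -1.12, SE 0.30, edgeR adjusted p = 0.332). Rpl5, a ribosomal protein gene whose product can bind and block MDM2, had 50.5 and 40.8 CPM in the libraries labelled knockout, against 11.1 and 24.2 CPM in the controls (log2 fold change 1.37, SE 0.39, edgeR adjusted p = 0.354). Ribosomal protein genes have many processed copies, and how shared reads were counted is not given. Crebbp, an acetyltransferase of p53, had a log2 fold change of 0.97 (SE 0.35, edgeR adjusted p = 0.408). Of the paralogs of Trp53, Trp63 and Trp73, 0 of 2 were found, and no value is given.

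Further p53 targets were grouped by the process that their products bear on. A group can hold genes that promote and genes that restrain its process, so its median does not measure that process. Of 12 targets tied to cell cycle arrest, 8 were measured and 0 passed. Of these, 3 were non-overlapping as higher and 2 as lower (27.4% and 26.7% of all genes), and the median log2 fold change was -0.22. Without Plk2, which is below 1 CPM in both controls, 2 of 7 were non-overlapping as higher and 2 as lower, with a median of -0.28. Over all 8 the median turned positive (0.14) without knockout-labelled replicate 1. The polo-like kinase gene Plk2 had 7.27 and 2.49 CPM in the libraries labelled knockout and 0.58 and 0.655 CPM in the controls. Gadd45a, a growth arrest gene of the DNA damage response, had 680 and 463 CPM in the libraries labelled knockout, against 312 and 304 CPM in the controls (log2 fold change 0.89, SE 0.26, edgeR adjusted p = 0.354). Ptprv, a phosphatase gene induced by p53 in the mouse, had a log2 fold change of 1.23 (SE 0.40). Of 19 cell death targets, 16 were measured, 0 passed, 7 were non-overlapping as higher and 5 as lower (27.4% and 26.7% of all genes), and the median was -0.05. Without Trp53i11, which has a row only because of the libraries labelled knockout, 6 of 15 were non-overlapping as higher and 5 as lower, with a median of -0.13. Over all 16 the median turned positive without knockout-labelled replicate 1 (0.039) or control replicate 3 (0.027). Trp53i11, a p53-inducible gene, had 1.11 and 1.42 CPM in the libraries labelled knockout, against 0.218 and 0.148 CPM in the controls. Steap3, the ferrireductase of erythroid iron uptake, had 141 and 143 CPM in the libraries labelled knockout, against 321 and 188 CPM in the controls (log2 fold change -0.84, SE 0.29, edgeR adjusted p = 0.393). Tnfrsf10b, a death receptor gene, had a log2 fold change of 1.09 (SE 0.47).

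Targets in repair and metabolism were mostly above the controls. Of 26 listed, 21 were measured and 0 passed, and the median log2 fold change was 0.69. Non-overlapping as higher were 14 and as lower 2, against 27.4% and 26.7% of all genes. Without Eda2r, which is below 1 CPM in both controls, 13 of 20 were non-overlapping as higher, against the 26.3% given above. The median was then 0.64. Ddit4 stayed among the 20 because control replicate 8 reached 1 CPM before TMM scaling, although both of its scaled control values were below that level. Over all 21, Eda2r included, the median was 1.0 without knockout-labelled replicate 2 and 0.26 without replicate 1. Sesn2, a stress sensor that restrains mTORC1 and also an ATF4 target, had 55.4 and 61.7 CPM in the libraries labelled knockout, against 18.5 and 15.0 CPM in the controls (log2 fold change 1.81, SE 0.22, edgeR adjusted p = 0.0764). Ddit4, which encodes the mTORC1 inhibitor REDD1 and is also induced by hypoxia and ATF4, had 61.1 and 8.29 CPM in the libraries labelled knockout, against 0.399 and 0.972 CPM in the controls. Those knockout-labelled libraries differed from each other by a factor of 7.37. Ptpn14, a phosphatase gene, had a log2 fold change of 1.83 (SE 0.37, edgeR adjusted p = 0.23).

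Proliferation genes that p21 is known to restrain through the RB and DREAM repressors lay slightly lower. All 40 were measured, and 36 had a negative log2 fold change, as did 5363 of the 10716 genes. Of the 40, 21 were non-overlapping as lower and 2 as higher, against 26.7% and 27.4% of all genes. None passed in edgeR's quasi-likelihood test, and the median was -0.35. It was -0.61 without knockout-labelled replicate 2, when 16 genes passed as lower where 15.3% of all genes did, and -0.12 without replicate 1, when 0 passed. Ccnb1, the cyclin B1 gene, had 165 and 224 CPM in the libraries labelled knockout, against 303 and 268 CPM in the controls (log2 fold change -0.55, SE 0.23, edgeR adjusted p = 0.427). Cdc20, an activator of the anaphase-promoting complex, had 101 and 174 CPM in the libraries labelled knockout, against 216 and 218 CPM in the controls. Cdk1, the mitotic kinase, had 147 and 210 CPM in the libraries labelled knockout, against 276 and 235 CPM in the controls. In these 3 genes knockout-labelled replicate 1, the library with 305 CPM of neutrophil markers, was the farther from the controls.

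Several members answer to more than p53. Gdf15 and Bbc3 are known to be induced by CHOP as well, so the ATF4 and CHOP targets were set beside them. Of 18 listed, 17 were measured, and all 17 had a positive log2 fold change, as did 5353 of the 10716 genes. Non-overlapping as higher were 15 (27.4% of all genes), and the median was 1.74. Without Atf3 and Nupr1, which were below 1 CPM in both controls, 13 of 15 were non-overlapping as higher, against 26.3% of the genes that reached 1 CPM in a library of each group, and the median was 1.23. In edgeR's quasi-likelihood test 4 rose, where 0.103% of all genes did, namely Trib3, Atf5, Cebpb and Slc7a11, the last named after its values were seen. The pseudokinase gene Trib3 had 228 and 153 CPM in the libraries labelled knockout, against 7.87 and 5.05 CPM in the controls. The transcription factor gene Atf5 had 108 and 104 CPM in the libraries labelled knockout, against 11.6 and 15.6 CPM in the controls. Cebpb, another transcription factor gene, had 19.1 and 19.3 CPM in the libraries labelled knockout, against 2.97 and 2.94 CPM in the controls. Replicate 1 was the higher knockout-labelled library in 14 of the 17 genes. On the scale of log2 CPM minus the control mean, their median was 1.98 in replicate 1 and 1.39 in replicate 2. The ratio of knockout-labelled replicate 1 to replicate 2 was 1.49 for Trib3, 1.04 for Atf5, 0.987 for Cebpb and 0.919 for Slc7a11. These 4 genes had passed a test that favours genes with like values within a group. Their ratios were thus partly fixed by that choice, and nothing can be read from setting Gdf15 (0.927) or Bbc3 (3.28) beside them. The part of ATF4 and CHOP in the values of the members was not tested.

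**Figure D5:**
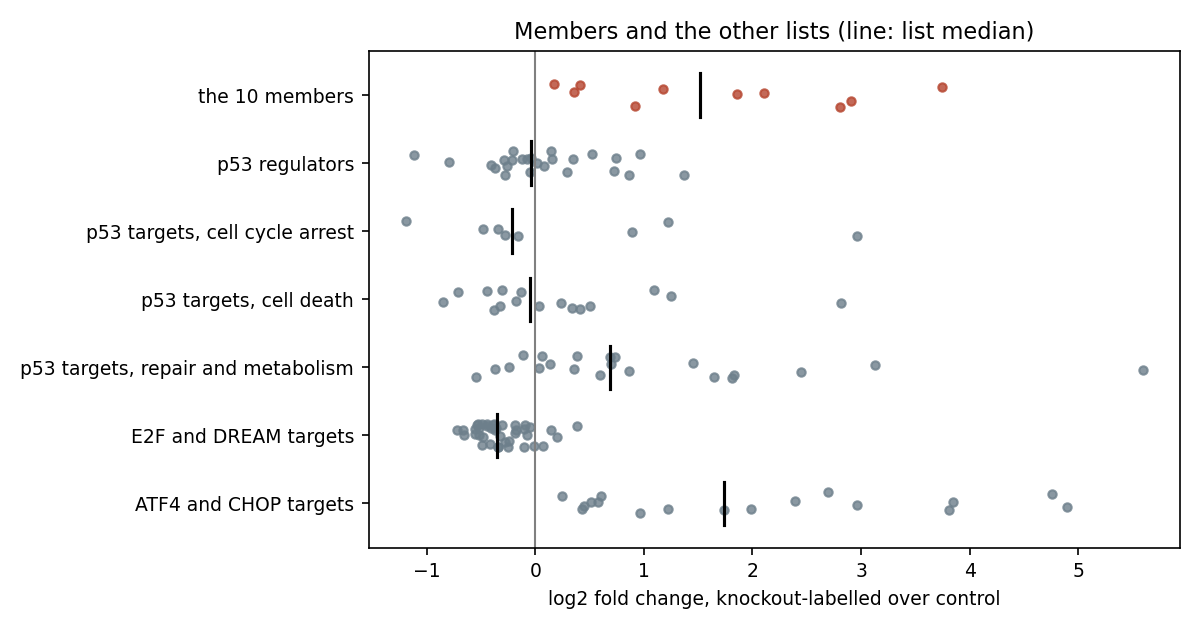
Log2 fold change, knockout-labelled over control, of each measured gene in the 10 members and in 6 other lists, with a line at each list's median. Medians are 1.52 for the members, 1.74 for ATF4 and CHOP targets, 0.69 for repair and metabolism targets and -0.35 for E2F and DREAM targets, and the other 3 lists lie between -0.22 and -0.04.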

How the data were processed

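RNA sequencing libraries of 4 samples were compared, 2 labelled knockout and 2 controls. The authors deposited raw counts per gene, with each gene above 1 CPM in at least 2 libraries, and a comparison table with a log2 fold change, p-value and adjusted p-value per gene. Per the submitters' processing notes the tools included HTSeq, TopHat2 2.0.8, Trimmomatic 0.30, limma and edgeR on mm9 (NCBIM37), without roles. The counts were tested with edgeR 4.0.16 under R 4.3.3 (filterByExpr, which removed 0 genes, TMM scaling, glmQLFit with robust=TRUE and legacy=TRUE, two-sided quasi-likelihood test, Benjamini-Hochberg over all genes, threshold 0.05, 2 residual degrees of freedom). The SE is the absolute log2 fold change divided by the square root of F. Log2 CPM used a prior count of 2. The code was tested on simulated data. Alternatives were RLE scaling, no scaling, 2 other filters, DESeq2 1.42.0, limma-voom (limma 3.58.1), the likelihood ratio test, robust=FALSE, legacy=FALSE and each library left out. Named genes were the members, the 3 genes with the smallest p in each other list and the 5 nearest to Cdkn1a. Members and lists were chosen with earlier results of these data known. Positions came from GENCODE on NCBIM37, where 9537 genes were found. An exact two-sided permutation test of 2 against 2 libraries cannot go below p = 0.333, so none is given. Total counts per library are given above, and counting error bears most on genes with low counts.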

Additional observations from a re-analysis of the deposited data

How the results depend on the processing

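No paired analysis was possible because the groups share no replicate number. All 10 members kept a positive log2 fold change under the 13 alternatives, except Aen (-0.099 to 0.50 with a library left out, negative at -0.022 and -0.099 where knockout-labelled replicate 1 or control replicate 3 was dropped). Members passing as higher numbered 0 with all libraries, 2 without library scaling, 5 with DESeq2, 4 with the likelihood ratio test and 1 to 7 with a library left out. Over all genes the 11 higher calls became 85, 353 and 331 under those settings and 25 to 1851 with a library left out, and the 0 lower calls became 2, 21, 18 and 1 to 1641. In the same order of the 3 settings, ATF4 and CHOP targets went to 8, 11 and 10 higher calls (3 to 11 with a library left out), and repair and metabolism targets to 1, 5 and 6 (0 to 10, with 0 to 1 lower). DESeq2 and the likelihood ratio test each called 1 regulator higher, 1 regulator lower and 1 arrest target higher, and the likelihood ratio test 1 cell death target higher. With a library left out, regulators had 0 to 5 higher and 0 to 3 lower calls, arrest targets 0 to 3 in each direction, cell death targets 0 to 5 higher and 0 to 1 lower, and E2F and DREAM targets 0 to 16 lower. The cause was not tested. RLE scaling, both other filters, limma-voom, robust=FALSE and legacy=FALSE called 0 members. Counts of 5 to 155 limit Gdf15 in every library, and Phlda3 and Zmat3 in the controls.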
